A study of Mus musculus with 12 samples.

Results

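RNA sequencing compared cultured mouse muscle stem cells that had received a plasmid carrying the mouse Six2 coding sequence (pCR3-Six2) with cells that had received the empty plasmid (pCR3), in the population sorted as GFP-negative. The members of this comparison are the genes that reached 10 normalized counts in 3 or more of its 6 libraries: 13893 of the 23586 genes in the deposited table, of which 12552 reached 10 in all 6 libraries. All cells, treated and control alike, carried the Pax3nLacZ-IRES-GFP allele, in which the Pax3 locus drives a nuclear LacZ and GFP, and the cells were sorted by GFP before culture. Sorted cells were grown at low density in high-serum medium with basic FGF and transfected by lipofection, and the submitters verified the transfection by RT-qPCR for Six2. The GFP-negative groups had 3 libraries each, as did 2 GFP-positive groups given the same plasmids, all made by SMART-Seq2, a full-length cDNA protocol. The labels give no age or sex of the animals, no time after transfection and no word on whether libraries of a group come from different animals or cultures. The p-values therefore rest on the spread between these libraries, which may be technical.

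Muscle stem cells, or satellite cells, are the resident progenitors of skeletal muscle. After activation they divide as myoblasts under PAX7, MYF5 and MYOD1, leave the cell cycle as MYOG and the MEF2 factors come up, and fuse into fibres that fill with sarcomeres. SIX2 and its relatives are homeodomain factors that bind DNA at MEF3 sites, work with EYA cofactors and act on myogenic promoters such as that of Myog. PAX3 is a paired-box factor of the embryonic muscle progenitor that some adult satellite cells keep.

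Recovered reads per library, in units of 1e6, were 12.4, 33.2 and 28.2 in the control-labelled libraries and 34.0, 37.1 and 40.2 in the SIX2-labelled ones. In these libraries the transfected gene did not check the labels: Six2 had 4.28, 15.9 and 24.4 normalized counts in the control-labelled libraries and 22.8, 23.7 and 19.2 in the SIX2-labelled libraries (log2 difference 0.80 ± 0.68 SE, limma-trend adjusted p = 0.421). The gene at the reporter locus did not check the sort label either: Pax3 had 72.8, 68.2 and 73.2 normalized counts in the control-labelled GFP-negative libraries and 94.1, 62.5 and 59.9 in the control-labelled GFP-positive ones, and 19.3, 16.5 and 13.8 against 12.5, 3.90 and 14.7 with the SIX2 label, ranges that overlap under both labels. Groups are therefore named by label, and each direction below is one between labels. Myogenic identity was clear in all 6 libraries, with Myod1 between 15276 and 19016, Des between 97424 and 183827 and Myog between 70194 and 92722 normalized counts, while Pax7 lay between 82.5 and 164. Several defining markers of other cell types were at or near 0, with Dcn of fibroblasts at most 1.80, Adgre1 of macrophages at most 1.43, Myh11 of smooth muscle at most 5.63 and Pecam1 of endothelium at most 13.2 normalized counts. Of 10 endothelial markers 2 were measured, 1 of them lower, and of 12 leukocyte markers 5, 1 of them higher, with sums of at most 157 and 253. Of 10 Schwann cell markers 4 were measured and 2 of these, Erbb3 (3976, 4094 and 3358 to 2630, 2618 and 1930) and Ngfr, were lower. Their summed level, mostly Erbb3, a neuregulin receptor, was 3930 to 4660 with the control label and 2240 to 2980 with the SIX2 label. Of 10 tendon markers 6 were measured, with 1 higher, 1 lower and sums of 2170 to 2420 and 1820 to 1960. Fibro-adipogenic and smooth muscle lists are given beside the matrix genes. The part of other cells in the results below, the matrix genes included, was not tested. Genes whose transcripts hold a GC-rich stretch tended to have higher counts in the control-labelled GFP-negative libraries. For the fifth of genes with the highest GC content in any 100-base window, the median log2 deviation from a gene's 12-library mean was 0.133, 0.102 and 0.123 in the control-labelled GFP-negative libraries and −0.018, 0.006 and 0.045 in the SIX2-labelled ones. In GFP-positive libraries it was −0.112, −0.041 and 0.043 with the control label and 0.012, −0.030 and −0.094 with the SIX2 label. Whether the difference arose in library preparation or in the cells was not tested. In bulk RNA, fewer cells of a state and less RNA per cell cannot be told apart.

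Of the 13893 genes, 4045 (29.1%) passed an adjusted p of 0.05 in limma-trend, 1965 of them higher (14.1%) and 2080 lower (15%) in the SIX2-labelled libraries. Genes whose 3 libraries of each group did not overlap numbered 6610 (47.6%), and 46 of the called genes did overlap. Most changes were modest. The median absolute log2 change of called genes was 0.596, the median change of all genes −0.00023, and 881 genes (6.34%) passed the threshold with over 2-fold change, 523 higher (3.76%) and 358 lower (2.58%). Over 4-fold, 87 were higher and 45 lower. The direction varied with the level of a gene. Among 4770 genes whose higher group mean lay between 50 and 500 normalized counts, 737 were higher and 459 lower, whereas among 2576 genes at 2000 or more, 396 were higher and 817 lower. Genes with a higher mean under 50 passed in 7.95% of cases. A set of 108 genes was measured only through the SIX2-labelled libraries and 49 only through the control-labelled ones, with no library of the other label at 10; such genes had to differ to be measured. In each of the lists for collagen crosslinking, Wnt, FGF, guidance, interferon response and fibro-adipogenic markers, 1 of the genes counted as higher is of this kind. Counts of called genes in every list below stand beside the shares over all genes, 14.1% higher and 15% lower.

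**Figure D1:**
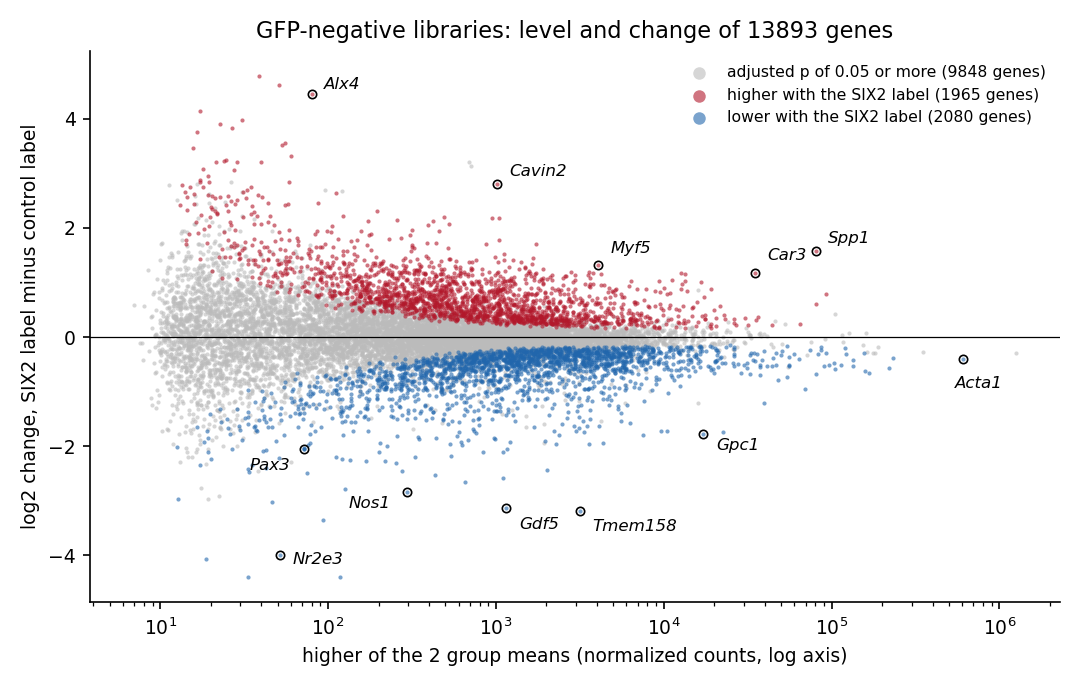
Each point is one of 13893 genes, placed by the higher of its 2 group means (normalized counts, log axis) and its log2 change between labels in GFP-negative libraries. Coloured points passed adjusted p 0.05, 1965 higher and 2080 lower; circled genes are named in the text.

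The largest rise of an abundant gene was in Spp1, which encodes the secreted matrix phosphoprotein osteopontin (GRCm38 chromosome 5, 104435118 to 104441050). Its control-labelled libraries held 29605, 27299 and 24268 normalized counts and its SIX2-labelled libraries 76335, 79544 and 85051, 2.97-fold more (log2 change 1.57 ± 0.08 SE, adjusted p = 4.09e-07). Car3, a carbonic anhydrase of muscle, had 13854, 16213 and 16676 and 35795, 36003 and 33519. The libraries of a label lay within a narrow range in both genes and far from the other label. Csf1, the growth factor of macrophages, had 1868, 1742 and 1449 and 3779, 3884 and 3641 normalized counts. Col19a1, a collagen of muscle, had 1373, 1643 and 1718 and 3586, 3586 and 3554. Gbp6, an interferon-inducible GTPase, rose by 1.16 ± 0.07 on the log2 scale, Myl9, a regulatory light chain of smooth-muscle and non-muscle myosin, by 1.14 ± 0.09, and Lpp, a protein of focal adhesions, by 1.19 ± 0.11. None of these genes overlapped between labels.

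Among less abundant genes, the homeobox gene Alx4 had 0, 8.72 and 3.75 normalized counts in control-labelled and 106, 70.5 and 63.2 in SIX2-labelled libraries. It is one of the 108 genes measured only through the SIX2-labelled libraries, so the size of its rise rests on control values near 0. Serpine2, a secreted protease inhibitor, had 116, 108 and 90.05 with the control label and 416, 477 and 572 with the SIX2 label (log2 change 2.21 ± 0.17, adjusted p = 2.68e-06). Akap12, a scaffold for protein kinase A, spread over 206, 117 and 79.7 among the control-labelled libraries and was even among the SIX2-labelled ones at 516, 559 and 505. The membrane protein Tmeff2 rose by 2.13 ± 0.16, the calcium-binding Cpne4 by 2.06 ± 0.19 and the nicotinamide methyltransferase Nnmt by 1.93 ± 0.40 on the log2 scale. P2ry14, a receptor for UDP-sugars that was also measured only through the SIX2-labelled libraries, went from 4.28, 0.793 and 8.44 to 71.4, 52.7 and 34.3 normalized counts. Gria3, a glutamate receptor subunit, went from 19.3, 8.72 and 20.6 to 82.8, 93.5 and 86.6. Of 32 measured receptors for transmitters and peptides, 7 were higher, P2ry14 included, and 3 lower (median 0.229), against 14.1% and 15% over all genes. The natriuretic peptide clearance receptor Npr3 (1.19) and the vasopressin receptor Avpr1a (1.35) were among the higher and the neurotrophin receptor Ngfr (−1.08) among the lower.

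Among the falls, Gdf5, a BMP-family ligand of joints and muscle, had 1244, 1032 and 1191 normalized counts with the control label and 173, 142 and 91.4 with the SIX2 label, 8.74-fold less (log2 change −3.13 ± 0.20, adjusted p = 1.2e-06). Cilp2, a cartilage matrix protein, had 850.4, 831 and 848 and 222, 208 and 159. The mitochondrial protein Mss51 had 251, 266 and 241 and 41.4, 55.3 and 55.9. None of the 3 overlapped between labels. Tmem158, a RAS-induced membrane protein, fell from 3091, 3005 and 3396 to 229.9, 378 and 485, with a log2 change of −3.18 ± 0.46. Nr2e3, a nuclear receptor measured only through the control-labelled libraries, went from 47.1, 58.7 and 48.8 to 0.714, 1.32 and 7.82, and the cytoskeletal linker Clip4 fell by 3.34 ± 0.46 on the log2 scale.

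The GFP-positive libraries, which are not part of the GFP-negative contrast, were read for the abundant genes. At 2000 normalized counts or more and over 2-fold, 26 genes were higher, and all 26 passed the threshold in the same direction between the GFP-positive groups, with a median log2 change of 1.12 here and 1.09 there. Of 61 such genes that were lower, 22 did so, with medians of −1.32 and −0.368. Gpc1, a heparan sulfate proteoglycan of the cell surface, illustrates the latter group with 16978, 16163 and 18561 normalized counts in control-labelled and 4802, 5082 and 5267 in SIX2-labelled GFP-negative libraries (log2 change −1.77 ± 0.21), against 5002, 6319 and 9421 and 7980, 4739 and 4518 in GFP-positive libraries (−0.27). Slain2, a microtubule-end protein, had −1.95 and −0.06, Habp4, an RNA-binding protein, −2.43 and −0.15, Psme3, a proteasome activator, −1.96 and 0.21, and the endosomal GTPase Rab5a −1.72 and −0.05 as log2 changes in the 2 populations, GFP-negative given first. The difference between populations did not pass adjustment for any gene in limma-trend (0 of 13893, 0.0%), with a smallest adjusted p of 0.0751, 2387 genes at an unadjusted p under 0.05, 0 genes in edgeR and 558 in DESeq2. For Gpc1 the interaction was −1.50 (adjusted p = 0.0782) and for Slain2 −1.89 (adjusted p = 0.0751). GC content moved with these falls: the median of the highest-GC 100-base window was 81% in the 61 abundant genes that were lower, 68% in the 26 that were higher and 72% in all genes. With a trend on overall transcript GC content removed from each library, 59 of the 61 and 26 of the 26 were still called, and with a trend on the highest-GC window removed 61 and 26.

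**Figure D2:**
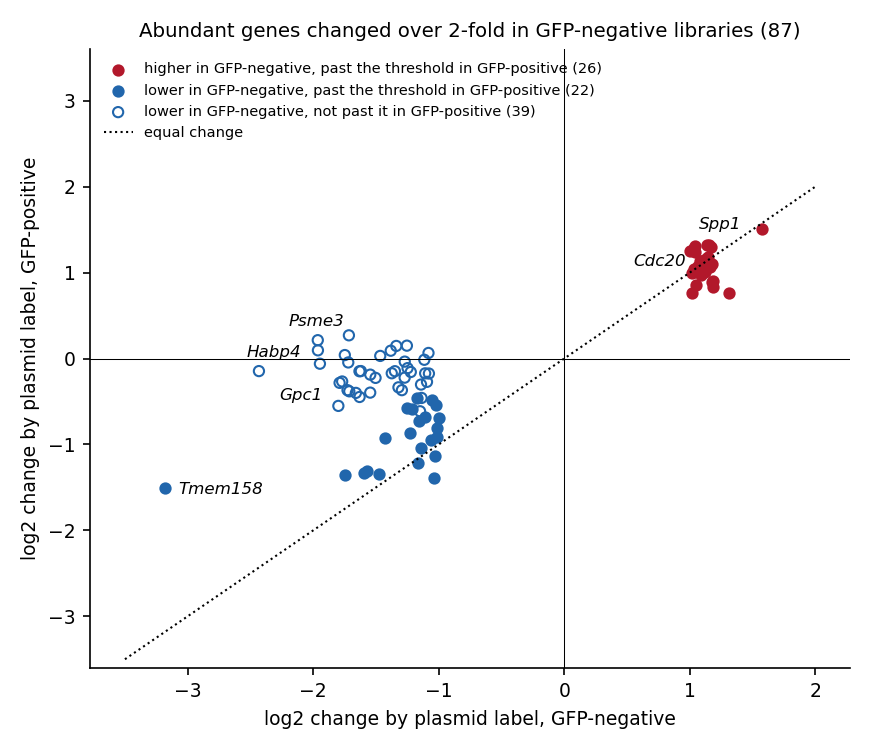
Each point is a gene with a higher group mean of at least 2000 normalized counts that passed adjusted p 0.05 with over 2-fold change in GFP-negative libraries. The horizontal axis is its log2 change there and the vertical axis its log2 change in GFP-positive libraries; the 26 higher genes lie along the dotted line of equal change, and most of the 61 lower genes lie near 0 on the vertical axis.

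Lineage factors of myogenesis moved both ways. Of 15 measured, 5 were higher and 5 lower (median log2 change −0.161, against −0.00023 over all genes). Myf5, the determination factor of dividing myoblasts, had 1420, 1755 and 1678 normalized counts in control-labelled and 3472, 3997 and 4657 in SIX2-labelled libraries, a log2 change of 1.32 ± 0.11 (adjusted p = 6.47e-06). Every SIX2-labelled library lay above every control-labelled one. Pax3, the gene at the reporter locus, had 72.8, 68.2 and 73.2 and 19.3, 16.5 and 13.8 (−2.06 ± 0.41, adjusted p = 0.0022), with the labels far apart in the opposite direction. Id2 (0.64) and Id3 (0.40), which hold back the bHLH factors of differentiation, rose on the log2 scale, and Mef2d (−0.94), a partner of those factors, fell. In GFP-positive libraries Id2 had 0.04 (limma-trend adjusted p = 0.806), Id3 0.24 (adjusted p = 0.0131) and Mef2d −0.24 (adjusted p = 0.495).

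Myog, the factor of terminal differentiation, had 81773, 86194 and 92722 normalized counts with the control label and 73271, 77241 and 70194 with the SIX2 label (log2 −0.24 ± 0.06, adjusted p = 0.0103). Its labels did not overlap, but the call was lost without control-labelled library 3 and under quantile normalization or removal of a GC trend. Pax7, which keeps satellite cells in the progenitor state, had 148, 104 and 82.5 and 161, 161 and 164 (adjusted p = 0.0481). The control-labelled libraries spread more widely than the SIX2-labelled ones, and the call was lost on leaving out any of 5 of the 6 libraries (all but control-labelled library 1), and any of 5 of the 6 GFP-positive libraries that share the fit. Myod1, the other determination factor, had 17237, 16252 and 19016 and 16061, 15524 and 15276 (log2 −0.16 ± 0.07, adjusted p = 0.0892). Of 7 measured genes, which are Six2, its relatives and EYA cofactors, none was called, with Six4 at −0.31 ± 0.17 and Eya4 at 0.03 ± 0.15. The count of 5 higher lineage factors became 3 without SIX2-labelled library 2 or 3, and that of 5 lower became 3 without control-labelled library 2 or 3 or SIX2-labelled library 3, and 2 under quantile normalization.

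Of 11 surface proteins of satellite cells 3 were higher and 6 lower (median −0.255). Vcam1, an adhesion molecule of these cells, had 476, 392 and 389 normalized counts with the control label and 1003, 1054 and 1286 with the SIX2 label. The proteoglycan Sdc4 had 2069, 2175 and 2176 and 3683, 3705 and 3439, and rose. Its relative Sdc3 had 4972, 4536 and 4649 and 2522, 2122 and 2066, and fell. These 3 genes had no overlap between labels. In GFP-positive libraries Vcam1 (1.63) and Sdc4 (0.91) also rose on the log2 scale, while Sdc3 had 0.06 (limma-trend adjusted p = 0.799). The count of 6 lower became 3 without control-labelled library 2 or 3 or SIX2-labelled library 3, and 2 under quantile normalization.

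**Figure D3:**
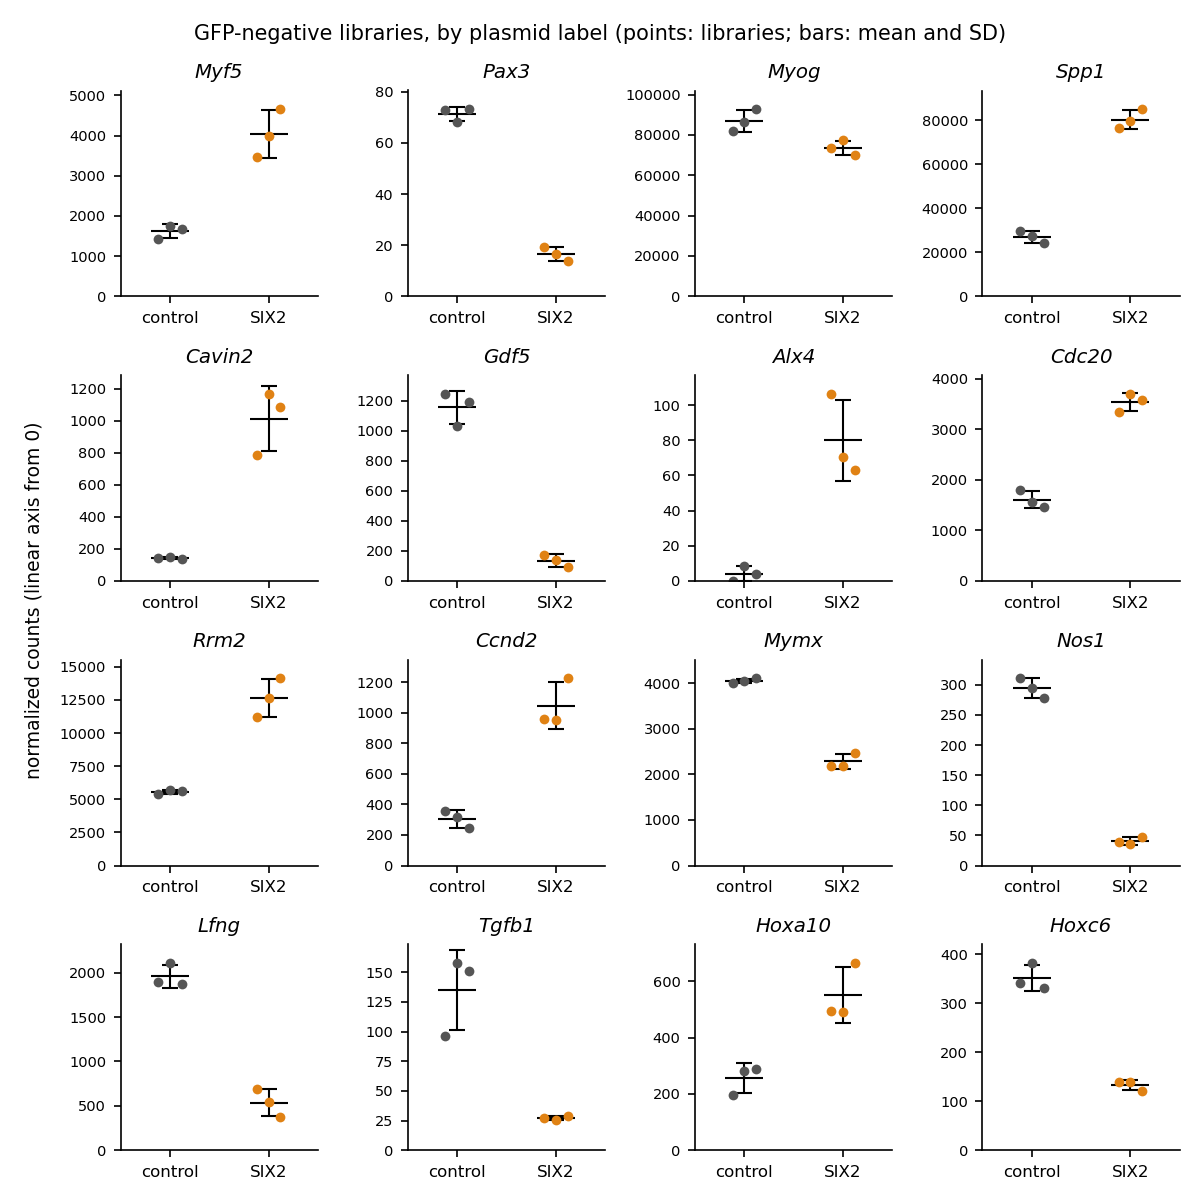
Normalized counts of 16 genes named in the text in the 3 control-labelled (grey) and 3 SIX2-labelled (orange) GFP-negative libraries, on linear axes from 0, with the mean and SD. The libraries of the groups do not overlap in any of the 16 panels.

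Nearly all measured cell cycle genes were higher with the SIX2 label. Of 30 genes of G2 and mitosis 29 were higher, with a median log2 change of 1.04; the exception, the phosphatase Cdc25b, had −0.31 ± 0.16 (adjusted p = 0.169). Of 32 genes of S phase 29 were higher and 1 lower, with a median of 0.767. The lower gene was Rrm1 (−0.21), a chain of ribonucleotide reductase, whose call was lost without control-labelled library 2 or 3 or SIX2-labelled library 3 and under quantile normalization or removal of a trend on the highest-GC window. Genes of both lists together held 0.281%, 0.265% and 0.256% of all normalized counts in the control-labelled libraries and 0.46%, 0.484% and 0.493% in the SIX2-labelled ones.

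Cdc20, which activates the anaphase-promoting complex, had 1793, 1567 and 1461 normalized counts with the control label and 3351, 3704 and 3577 with the SIX2 label (log2 change 1.14 ± 0.09, adjusted p = 4.14e-06). The mitotic cyclin Ccnb1 had 2082, 1918 and 1690 and 3992, 4485 and 4156. Rrm2, the other chain of ribonucleotide reductase, had 5366, 5686 and 5637 and 11242, 12638 and 14123. All SIX2-labelled libraries were above all control-labelled ones in these 3 genes. Prc1 (1.11), which bundles microtubules of the spindle midzone, Top2a (1.09), a topoisomerase, Cdc6 (1.23), which loads the replicative helicase, and Mcm6 (0.71), a subunit of that helicase, also rose on the log2 scale.

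Of 15 genes that govern G1, namely D cyclins, their kinases, CDK inhibitors and the RB family, 6 were higher and 2 lower (median 0.203). Their summed level overlapped between labels, at 75300 to 79100 and 77700 to 80600 normalized counts. The D cyclin Ccnd2 had 359.9, 316 and 244 normalized counts in control-labelled and 960.3, 955 and 1224 in SIX2-labelled libraries (log2 1.78 ± 0.17, adjusted p = 1.11e-05). Cdk6 (1.28), Ccnd1 (0.84) and Cdk4 (0.39) rose too. The pocket protein Rb1, which restrains E2F factors, fell from 2071, 2150 and 2114 to 1160, 1169 and 1190 normalized counts, without overlap. E2f4 (−0.80), an E2F factor of repressor complexes, was the other gene of this list called lower. The lowest log2 change in the list was −1.32, in a gene that was not called. DESeq2, library weights and thinning to equal depth each gave 3 lower genes. In GFP-positive libraries none of the list was called lower, and E2f4 had −0.19 (limma-trend adjusted p = 0.291). The CDK inhibitor Cdkn1a had 35482, 37807 and 39922 normalized counts with the control label and 38166, 38922 and 37363 with the SIX2 label, which overlap (log2 0.02 ± 0.08, adjusted p = 0.894). Of 24 methylation enzymes 4 were higher, near the 14.1% over all genes, and 1 lower (median 0.0655; 0 lower without control-labelled library 3 or SIX2-labelled library 2, and 2 without GFP-positive control-labelled library 3 or GFP-positive SIX2-labelled library 1 or 3), the higher ones including the maintenance methyltransferase Dnmt1 (0.64) and its partner Uhrf1 (0.86), which copy DNA methylation at replication.

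Promoters of the measured genes were searched for motifs of these regulators. Sequences of 300 bases, from 250 before to 50 after the transcript start, were taken from RefSeq (GRCm38.p6) for 10330 of the 13893 genes and searched on both strands. The promoters of Cdc20 and of the mitotic kinase Plk1 (1.05) are shown for the cell cycle, with the CCAAT box (letters CCAAT) and the cell cycle homology region (letters TTTGAA) in capitals. That of Myog is shown for its match to the MEF3 letters TCAGGTT, which SIX2 and its relatives bind, and that of Chac1, a stress gene described below, for a match to the C/EBP-ATF letters TGATGCA, which lie on the opposite strand. All are written 5′ to 3′ on the gene's strand.

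Cdc20, chr4:118437294-118437593, minus strand: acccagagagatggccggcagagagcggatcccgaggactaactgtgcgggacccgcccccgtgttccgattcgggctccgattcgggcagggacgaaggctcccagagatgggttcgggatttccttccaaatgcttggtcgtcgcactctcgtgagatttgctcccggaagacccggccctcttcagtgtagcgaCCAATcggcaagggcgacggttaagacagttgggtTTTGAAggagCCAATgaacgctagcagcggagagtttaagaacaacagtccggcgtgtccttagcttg

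Plk1, chr7:122159185-122159484, plus strand: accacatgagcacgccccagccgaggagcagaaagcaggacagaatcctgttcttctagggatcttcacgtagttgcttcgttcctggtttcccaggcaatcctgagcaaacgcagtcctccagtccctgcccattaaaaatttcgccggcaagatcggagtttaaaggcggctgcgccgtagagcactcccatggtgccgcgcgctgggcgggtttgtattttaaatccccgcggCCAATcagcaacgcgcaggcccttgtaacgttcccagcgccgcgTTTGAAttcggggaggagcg

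Myog, chr1:134289754-134290053, plus strand: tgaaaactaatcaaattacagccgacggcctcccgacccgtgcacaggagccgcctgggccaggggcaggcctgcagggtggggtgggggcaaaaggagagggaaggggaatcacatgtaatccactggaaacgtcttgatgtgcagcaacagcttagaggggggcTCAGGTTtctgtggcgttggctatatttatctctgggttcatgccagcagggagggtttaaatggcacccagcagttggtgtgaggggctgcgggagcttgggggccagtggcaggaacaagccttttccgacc

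Chac1, chr2:119350992-119351291, plus strand: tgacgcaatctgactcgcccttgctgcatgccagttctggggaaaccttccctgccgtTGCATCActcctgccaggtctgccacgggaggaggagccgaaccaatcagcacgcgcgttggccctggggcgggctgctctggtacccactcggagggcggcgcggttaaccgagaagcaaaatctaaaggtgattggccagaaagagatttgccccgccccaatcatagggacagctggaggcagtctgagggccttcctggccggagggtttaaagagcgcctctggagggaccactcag

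Cdc20 holds CCAAT 53 and 8 bases before its start with the TTTGAA element between them, 18 bases before the start. In Plk1, CCAAT lies 14 bases before the start and TTTGAA after it, at base 31. The letters CCAAT were found in 23 of 27 promoters of the G2 and mitosis list (85.2%), in 37.7% of promoters of measured genes and in 37.4% of all RefSeq promoters, and TTTGAA in 20 of 27 (74.1%), 12.2% and 17.9%. An E2F site (letters TTCCCGC or TTGGCGC) was found in 16 of 31 promoters of the S phase list (51.6%), in 11.6% of promoters of measured genes and in 6.81% of all. Over called genes, the promoters of higher genes held CCAAT in 43.8%, TTTGAA in 16.7% and the E2F letters in 16.3% of cases. In promoters of lower genes these shares were 34.2%, 9.76% and 9.71%, and in those of genes not called 37.2%, 11.8% and 11.1%. E-boxes (letters CACCTG or CAGCTG), the sites of bHLH factors, were found in 26.1% of promoters of higher, 37.1% of lower and 29.5% of uncalled genes, in 11 of 20 promoters (55.0%) of the sarcomere list, in 30.3% of those of measured genes and in 32.9% of all RefSeq promoters. The MEF3 letters were found in 3.4% of promoters of higher, 3.8% of lower and 3.09% of uncalled genes, against 3.25% of measured genes and 4.07% of all. In Myog they lie 84 bases before the start, and the Myog promoter held neither CACCTG nor CAGCTG. Other forms of the E-box were not searched. The promoters of Ccnb1 and Rrm2 were searched in the same way and are not printed. Both held CCAAT, but Ccnb1 held no TTTGAA and Rrm2 no E2F letters. A match of letters is a description of the sequence and does not show that a factor binds there.

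Most genes of the contractile apparatus were lower, by less than 2-fold in the main. Myosins, troponins, tropomyosins and other sarcomere genes together (55 genes) held 10.8%, 11.0% and 11.1% of all normalized counts in the control-labelled libraries and 9.5%, 9.24% and 8.78% in the SIX2-labelled ones. Of 10 troponins and tropomyosins 9 were lower and 1 higher (median log2 change −0.387), of 29 other sarcomere genes 19 lower and 1 higher (−0.382), and of 16 myosins and their partners 9 lower and 1 higher (−0.441). The 1 higher myosin gene was not called without control-labelled library 1 or 3 or SIX2-labelled library 1 or 2, and 2 other sarcomere genes were higher without control-labelled library 3 and 3 without GFP-positive SIX2-labelled library 3. Mylpf, a fast regulatory light chain, had 224711, 222772 and 209500 normalized counts with the control label and 153236, 145600 and 145013 with the SIX2 label (log2 change −0.57 ± 0.06, adjusted p = 1.53e-05). The slow troponin Tnnt1 had 39021, 36574 and 36300 and 23353, 22554 and 23562. Actn2, which crosslinks actin at the Z-disc, had 48868, 47978 and 47958 and 31756, 28775 and 24411. None of these 3 overlapped between labels. Acta1, the skeletal actin, had 587039, 594640 and 647101 and 459717, 476433 and 444158 (−0.41 ± 0.06), a call lost under quantile normalization. Under that scaling 6 troponins and tropomyosins, 7 myosins and 15 other sarcomere genes were lower.

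Trim63 (−0.86), a ubiquitin ligase that marks sarcomere proteins for breakdown, fell on the log2 scale together with Klhl41 (−0.58) and Lmod3 (−0.59), which assemble and stabilise thin filaments. Members that did not follow their lists were of different kinds. Tpm3, a tropomyosin with slow-muscle and non-muscle isoforms, rose from 4905, 4601 and 4170 to 8813, 9154 and 10042 normalized counts. Myoz1, a calsarcin of fast fibres, rose from 66.4, 71.4 and 107 to 203, 167 and 148. The giant sarcomere genes Ttn (0.43 ± 0.21, adjusted p = 0.152) and Neb (0.29 ± 0.14, adjusted p = 0.133) were not called, nor was the embryonic myosin Myh3 (−0.29 ± 0.12, adjusted p = 0.101).

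Part of the genes of fusion, excitation and the synapse fell as well. Mymx, the micropeptide that opens fusion pores, had 4016, 4046 and 4108 normalized counts in control-labelled and 2194, 2193 and 2476 in SIX2-labelled libraries (log2 −0.83 ± 0.07, adjusted p = 7.56e-06). Its partner Mymk had 42714, 43930 and 45722 and 32199, 32237 and 27305. Neither overlapped between labels. Of 16 fusion genes 6 were lower and 3 higher (median −0.188), the latter including Dock1 (1.01), a RAC activator. Of 18 genes of excitation-contraction coupling 12 were lower and 1 higher (median −0.357), with the calcium channel subunit Cacna1s from 12895, 12729 and 11993 to 7593, 7048 and 5789. Of 12 genes of the neuromuscular junction 6 were lower (median −0.216), among them the fetal acetylcholine receptor subunit Chrng (−0.52) and Dok7 (−0.58), an activator of the receptor-clustering kinase MUSK. Leaving out 1 library gave 9 to 12 lower coupling genes and 4 to 7 lower junction genes. Of 17 voltage-gated channels 6 were lower and none higher (median −0.511), the potassium channel subunit Kcnf1 among them (−0.84).

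The dystrophin complex ties the fibre's cytoskeleton to its basement membrane, and 9 of 15 of its genes were lower and 1 higher (median −0.45). The lower count was 6 to 10 on leaving out 1 library and 6 under quantile normalization. Nos1, the neuronal nitric oxide synthase that docks on the complex, had 311, 295 and 278 normalized counts with the control label and 39.3, 35.6 and 47.5 with the SIX2 label, 7.11-fold less (log2 −2.83 ± 0.19, adjusted p = 1.76e-06). Dystrobrevin Dtna (−0.56), the syntrophin Sntb1 (−0.61) and the dystroglycan Dag1 (−0.47) fell by less. Lama2, the laminin chain to which dystroglycan binds, rose from 1007, 1160 and 1076 to 1661, 1775 and 1497.

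Caveolae, flask-shaped pits of the plasma membrane, had 6 of 11 genes higher and 5 lower (median 0.38). Leaving out 1 library gave 4 to 6 higher and 5 lower. Widely expressed coat genes rose. Cavin2 had 146, 148 and 134 normalized counts with the control label and 786, 1168 and 1088 with the SIX2 label (log2 2.80 ± 0.23, adjusted p = 4.14e-06). Cavin3 (0.93), Cav1 (0.88) and Ehd2 (0.96), an ATPase at the neck of the pit, rose on the log2 scale. The muscle forms and the pacsins, which bend membrane, fell. Cavin4 had 25109, 27160 and 26900 and 19196, 18611 and 17128 normalized counts. Cav3 had 9476, 9140 and 9940 and 7122, 7547 and 7069. Pacsin1 had 463, 427 and 404 and 94.2, 80.4 and 52.3, and its relatives Pacsin2 (−0.46) and Pacsin3 (−0.56) fell by less on the log2 scale. The labels did not overlap in Cavin2, Cavin4, Cav3 or Pacsin1.

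**Figure D4:**
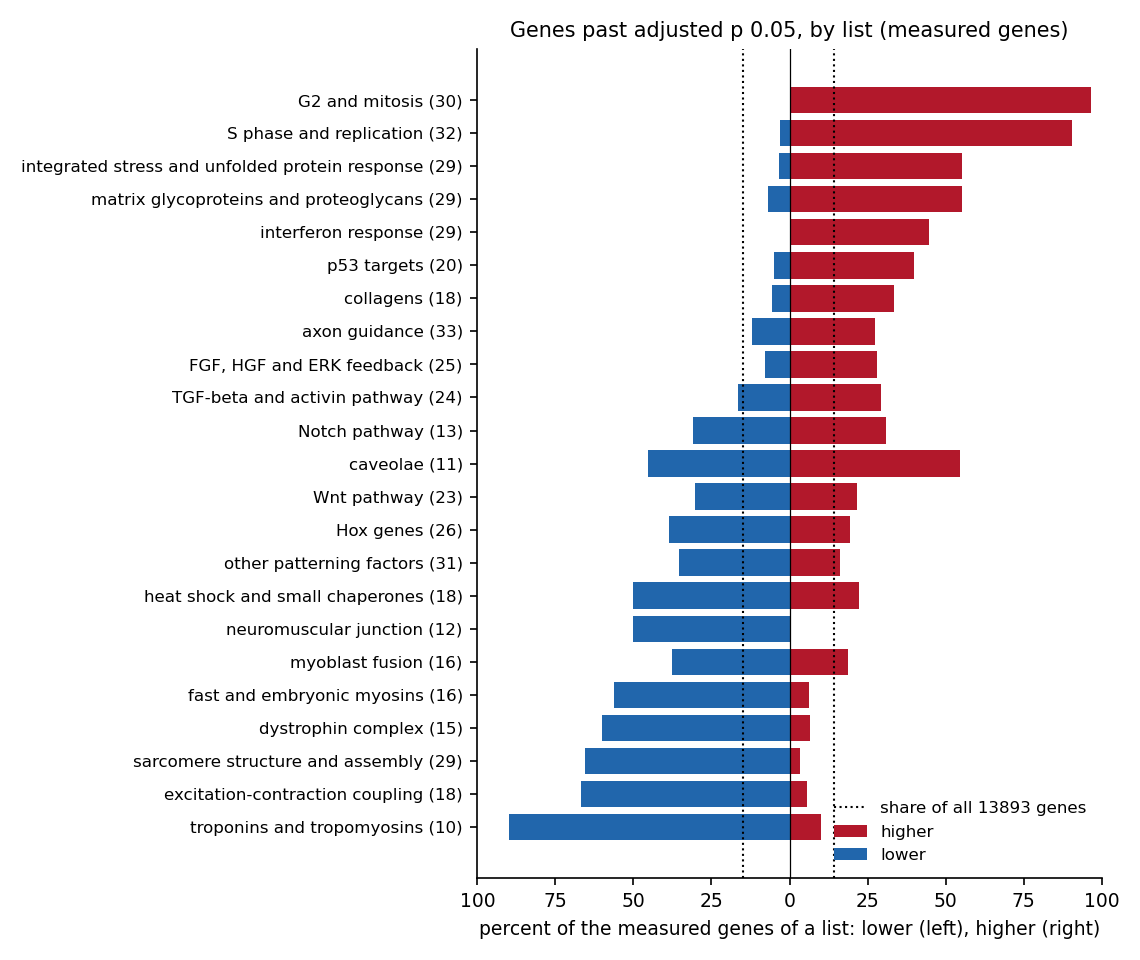
Bars give the percent of measured genes of 23 lists that passed adjusted p 0.05, lower to the left and higher to the right, with the number of measured genes in brackets; dotted lines are the shares over all 13893 genes, 15% lower and 14.1% higher. Cell cycle lists extend to the right, contractile lists to the left, and caveolae, Notch and Hox genes in both directions.

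Many genes of the extracellular matrix were higher. Collagens and matrix glycoproteins together (57 genes) held 0.476%, 0.447% and 0.407% of normalized counts with the control label and 0.797%, 0.775% and 0.781% with the SIX2 label. Of 29 measured glycoproteins and proteoglycans 16 were higher and 2 lower (median log2 change 0.643), and of 18 collagens 6 were higher and 1 lower (0.376). Postn, a matricellular protein of healing tissue, had 278, 209 and 208 normalized counts in control-labelled and 1020, 985 and 1148 in SIX2-labelled libraries (log2 2.19 ± 0.15, adjusted p = 1.76e-06). Thbs1, a thrombospondin that activates latent TGF-beta, had 6282, 5397 and 4687 and 11416, 11343 and 10662. Col1a1, the main fibrillar collagen chain, had 336, 212 and 124 and 935, 1014 and 893 (2.19 ± 0.28). The labels did not overlap in these genes, although Col1a1 spread widely among the control-labelled libraries. Its partner Col1a2 (1.03), the thrombospondin Thbs2 (1.94), fibronectin Fn1 (0.83), tenascin Tnc (0.94), versican Vcan (1.23) and fibrillin Fbn1 (1.13) rose on the log2 scale.

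Npnt, an integrin ligand of basement membranes, fell from 11203, 11631 and 11708 to 7344, 6772 and 5938 normalized counts. The chains of collagen VIII parted. Col8a1 rose from 711, 529 and 392 to 1684, 1956 and 1571, and Col8a2, which was in no list, fell from 233, 235 and 187 to 72.8, 52.04 and 22.9. Of 15 crosslinking genes 4 were higher and 1 lower (median 0.158), with Loxl3 (1.71) higher and Loxl1 (−0.47) lower. Since fibroblast-like cells also make matrix, their markers were read beside it. Of 15 listed fibro-adipogenic markers 7 were measured, 4 of them higher, including Smoc2 (70.7, 49.9 and 53.5 to 283, 229.9 and 259). Their summed level was 3890 to 4350 normalized counts with the control label and 4090 to 4480 with the SIX2 label, Dcn was at most 1.80 and Pdgfra at most 16.5. Of 9 measured pericyte and smooth muscle markers 4 were higher, including the actin-binding Tagln (0.86), and 3 lower. Their sum, mostly Des and Acta2, was 216000 to 245000 with the control label and 154000 to 169000 with the SIX2 label.

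Ligands of the TGF-beta family changed in both directions. The ligand Tgfb1 had 96.4, 158 and 151 normalized counts with the control label and 27.1, 25.03 and 28.9 with the SIX2 label (log2 −2.25 ± 0.32, adjusted p = 0.000222). Mstn, or myostatin, which restrains muscle growth, had 488, 563 and 499.96 and 1105, 1261 and 940.1. The activin subunit Inhba had 51.4, 49.9 and 51.6 and 121, 202 and 192. Tgfb1 was thus lower and the other 2 higher, without overlap. In GFP-positive libraries the log2 change of Tgfb1 was −0.74 (limma-trend adjusted p = 0.118). Tgfb2 fell, with a log2 change of −0.53. Of the 24 genes of this list 7 were higher and 4 lower (median −0.104); 2 were lower without control-labelled library 2 or 3 or SIX2-labelled library 3. In the BMP branch 4 of 22 genes were higher and 3 lower (median 0.136), with 2 higher without SIX2-labelled library 1 or 2, shares near the 14.1% and 15% over all genes. Id2 and Id3, counted above among the lineage factors, were among the higher. The lower genes were Gdf5 and the secreted antagonists Nog (572, 733 and 660.4 to 92.1, 85.6 and 137) and Chrd (−1.10).

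In the Notch pathway 4 of 13 genes were higher and 4 lower (median 0.0862). The glycosyltransferase Lfng, which modifies Notch receptors, had 1900, 2108 and 1869 normalized counts with the control label and 689, 538 and 379 with the SIX2 label (log2 −1.91 ± 0.19, adjusted p = 1.67e-05). The ligands Dll1 (−0.62) and Jag2 (−0.63) fell too. The receptor Notch3 rose from 137, 73.7 and 104 to 352, 278 and 208. The target Heyl, a transcriptional repressor, rose from 368, 271 and 210.1 to 489, 582 and 636. The labels did not overlap in Lfng, Notch3 or Heyl.

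Of 23 Wnt genes 7 were lower and 5 higher (median −0.535), the latter count 2 or 3 without control-labelled library 1 or 2 or SIX2-labelled library 1 or 3. Porcn, which lipidates Wnt ligands for secretion, fell from 2737, 2467 and 2620 to 1634, 1479 and 1244 normalized counts. The ligand Wnt9a fell from 3991, 3958 and 4730 to 2478, 2093 and 1798. The ligand Wnt11, which acts outside the beta-catenin branch, fell from 186, 169 and 148 to 27.8, 26.3 and 51.7. Among receptors Fzd7 fell (−1.35) and Fzd4 rose (1.82) on the log2 scale.

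Of 15 YAP and TEAD targets 5 were higher and 2 lower (median −0.0277); 4 were lower without GFP-positive control-labelled library 1 or 3 or GFP-positive SIX2-labelled library 1 or 3, 5 with only the 6 libraries in the fit and 6 with library weights. Ccn2, a matricellular target, had 593, 438 and 411 normalized counts with the control label and 1250, 1231 and 1294 with the SIX2 label. Ccn1 (0.43) rose by less, and Tead4 (−0.71), a DNA-binding partner of YAP in muscle, fell. Of 25 genes of FGF signalling and its feedback 7 were higher and 2 lower (median 0.244), with the feedback inhibitor Spry4 at 0.99, the target Etv5 at 0.65 and the receptor Fgfr3 at −0.67. The count of 2 lower was 1 without SIX2-labelled library 1, 3 without SIX2-labelled library 3 or GFP-positive SIX2-labelled library 3 and 4 without GFP-positive SIX2-labelled library 1.

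Of 33 guidance genes 9 were higher and 4 lower (2 without SIX2-labelled library 3), with a median of 0.142. The semaphorin receptor Nrp1 rose from 231, 209 and 225 to 559, 579 and 605 normalized counts. Its ligand Sema3a rose from 278, 276 and 280.5 to 596, 765 and 909. Sema3b fell from 1414, 1519 and 1793 to 804, 783 and 585. Semaphorins of 1 class thus moved apart, and Robo1 (1.43), the receptor of Slit proteins, rose, while Sema6c (−2.46), which was in no list, fell. The log2 change of Sema6c in GFP-positive libraries was −0.16 (limma-trend adjusted p = 0.867). Of 23 genes of the IGF axis and imprinted growth genes 3 were higher, near the 14.1% over all genes, and 5 lower, against 15% (median 0.0228). Leaving out any 1 of the 6 libraries gave 1 to 3 lower and 1 or 2 higher. Removing a GC trend gave 1 higher. Igf2, a fetal growth factor, fell from 29375, 29989 and 27846 to 19889, 18585 and 17102. Grb10, an inhibitor of insulin and IGF receptors, rose from 6008, 6293 and 5852 to 9856, 11111 and 10232.

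Of 26 measured Hox genes 10 were lower and 5 higher (median −0.6). Hox genes are ordered along the chromosome as they are along the body axis, with high paralog numbers marking posterior trunk and distal limb. Split at paralog number 9, a limit drawn after the values were seen and not tested, 10 of 18 genes below it were lower and none higher (median log2 change −0.743), and 5 of 8 from it upward were higher and none lower (1.02). Hoxc11, among these 5, was measured only through the SIX2-labelled libraries. Among genes that were not called, Hoxd9 (−0.62 ± 0.30) and Hoxc9 (−0.04 ± 0.19) lay below 0, and Hoxd8 (0.28 ± 0.28) and Hoxb2 (0.11 ± 0.37) above it. Hoxa10 had 195, 283 and 289.8 normalized counts with the control label and 496, 490.1 and 665 with the SIX2 label (log2 1.11 ± 0.19, adjusted p = 0.000675). Hoxc6 had 341, 382 and 331 and 139, 139 and 121, and Hoxc8 fell like it (−1.45). Hoxa9 (0.83) rose like Hoxa10. Within the Hoxc cluster Hoxc10 (1.36) and Hoxc5 (−1.55), whose annotated exons overlap on the same strand, moved apart. Hoxc11 had 0, 7.93 and 2.81 normalized counts with the control label and 18.6, 39.5 and 24.1 with the SIX2 label, and its call was lost without control-labelled library 1 or 3 or SIX2-labelled library 2 or 3. The call of Hoxa11 was lost without control-labelled library 1 or 2 or SIX2-labelled library 2 or 3, and those of Hoxa3, Hoxa5 and Hoxa7 without any 1 of the 6. Over all Hox genes the count of 5 higher became 3 without control-labelled library 1 or SIX2-labelled library 2 or 3, and that of 10 lower became 5 or 6 without control-labelled library 3 or SIX2-labelled library 2 or 3.

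**Figure D5:**
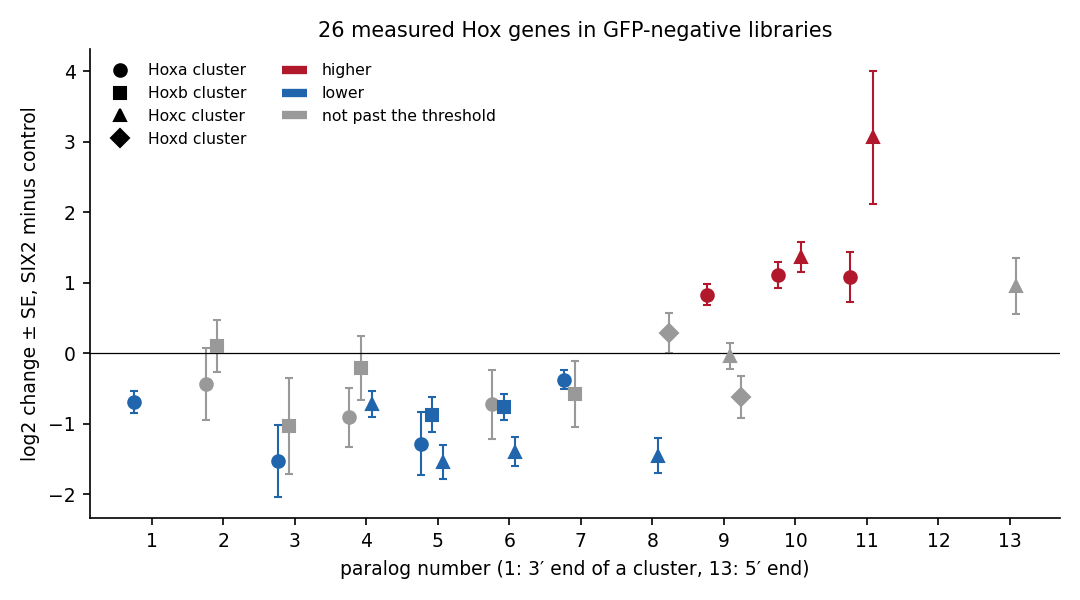
Log2 change (± SE) of 26 measured Hox genes between labels in GFP-negative libraries, by paralog number, with symbols for the Hoxa to Hoxd clusters. The 10 genes past adjusted p 0.05 below paralog number 9 are lower and the 5 from 9 upward are higher; grey symbols did not pass.

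Of 31 other patterning factors 11 were lower and 5 higher (median −0.131), the latter 3 without control-labelled library 1 or 2 or SIX2-labelled library 2. Tbx1, a factor of head muscle progenitors, had 506, 502 and 614 normalized counts with the control label and 84.2, 126 and 153 with the SIX2 label (log2 −2.18 ± 0.55, adjusted p = 0.00937). It was lower without overlap, as were Irx3 (−2.19), Emx2 (−1.49), a factor of the shoulder girdle, and Tbx3 (−0.82), a factor of the limb. Besides Alx4, which was measured only through the SIX2-labelled libraries, the Hedgehog effector Gli3 rose from 176, 160.1 and 202 to 391, 385 and 349. Mkx, a homeobox factor of tendon, rose from 14.99, 35.7 and 25.3 to 64.97, 103 and 63.2. The tendon factor Scx was lower (446, 454 and 409 to 336, 313 and 271), a call lost without any of 5 of the 6 libraries (all but SIX2-labelled library 1) and on removing either GC trend.

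Of 29 genes of the integrated stress and unfolded protein responses 16 were higher and 1, Edem1, lower, with a median log2 change of 0.31; 2 were lower without SIX2-labelled library 1 or GFP-positive SIX2-labelled library 3. Trib3, a pseudokinase induced by ATF4, had 206, 189 and 199.8 normalized counts with the control label and 532, 572 and 502 with the SIX2 label (log2 1.43 ± 0.14, adjusted p = 1.71e-05). Chac1, which degrades glutathione, had 296, 295 and 356 and 658, 528 and 564. Both were higher without overlap, as were the serine synthesis enzymes Psat1 (0.55) and Phgdh (0.53) and the asparagine synthetase Asns (0.50). In the promoter of Chac1 printed above, the C/EBP-ATF letters lie 192 bases before the start. The promoters of Trib3 and Asns, which are not printed, held no match to these letters. The letters were found in 6 of 29 promoters of this list (20.7%), in 1.93% of promoters of measured genes and in 3.15% of all RefSeq promoters. The transcript of Atf4 itself, a factor controlled by translation, had a log2 difference of −0.04 ± 0.07 (adjusted p = 0.724), and the endoplasmic reticulum chaperone Hspa5 0.25 ± 0.10 (adjusted p = 0.0721).

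Of 20 genes listed for p53, namely Trp53 itself and its targets, 8 were higher and 1 lower (median 0.298). Trp53 (0.43) was among the higher. The lower genes numbered 2 without SIX2-labelled library 1, GFP-positive control-labelled library 3 or GFP-positive SIX2-labelled library 3. Without GFP-positive SIX2-labelled library 1 they numbered 3. Ccng1, a cyclin induced by p53, had 9723, 10610 and 9953 normalized counts with the control label and 15880, 16004 and 15397 with the SIX2 label. Sesn2, a stress sensor that is also in the integrated stress list, had 191, 146 and 179 and 463, 432 and 369. Both were higher without overlap, as were Zmat3 (0.66), an RNA-binding target, and the proapoptotic Bax (0.50). Cdkn1a, given above, and Mdm2 (0.01 ± 0.05, adjusted p = 0.954), which feeds back on p53, were not called.

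Of 29 interferon response genes 13 were higher and none lower (median log2 change 0.679). Ifit1, an antiviral RNA-binding protein, had 266, 297 and 199.8 normalized counts with the control label and 585, 594 and 665 with the SIX2 label. Ifi27 (0.78) and Ifit2 (0.62) rose on the log2 scale. The count of 13 was 6 without control-labelled library 2 or 3 or SIX2-labelled library 1 or 3, 7 without SIX2-labelled library 2 and 7 with libraries thinned to equal depth. In the MHC class I list 1 of 15 genes, H2-D1 (0.52), was higher (median 0.159), a smaller share than the 14.1% over all genes. The count of higher genes was 3 without control-labelled library 3 or GFP-positive control-labelled library 1, and 2 without GFP-positive control-labelled library 2 or GFP-positive SIX2-labelled library 3. Of 17 inflammatory genes 3 were higher and 3 lower (median 0.291), near the 14.1% and 15% over all genes. The chemokine Cxcl12 (1.04) was higher and the NF-kB subunits Nfkb2 (−0.71) and Relb (−0.87) were lower.

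Of 18 heat shock genes and small chaperones 9 were lower and 4 higher (median −0.169); 1 or 2 were higher without control-labelled library 2 or 3 or SIX2-labelled library 2 or 3, and 5 lower under quantile normalization. Cryab, a small chaperone of muscle, fell from 35949, 37532 and 38467 to 24477, 25325 and 26470 normalized counts. Bag3 (−0.54), a co-chaperone that clears damaged filamin, fell with it. The mitochondrial chaperonin Hspd1 rose from 7137, 7034 and 7555 to 10040, 10861 and 11852. Of 24 immediate early genes 8 were higher and 2 lower (median 0.028), with Ier2 (0.68) and Fosl1 (1.11) among the higher. No gene of that list was lower without control-labelled library 2 or 3 or SIX2-labelled library 3, under quantile normalization or on removing a GC trend. The lower genes numbered 1 without control-labelled library 1, SIX2-labelled library 2 or GFP-positive control-labelled library 2.

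Of 15 genes encoded by the mitochondrial genome 6 were lower and none higher (median −0.319). The complex I subunit mt-Nd5 fell from 70845, 70945 and 65408 to 36791, 34655 and 35346 normalized counts (log2 −0.96 ± 0.08, adjusted p = 5.07e-06), without overlap. Removing a GC trend gave 10 lower, and a trend on the highest-GC window 11, while 3 were lower without control-labelled library 3 or SIX2-labelled library 1 or 2. Of 38 nuclear respiratory chain genes 8 were lower and 3 higher (median −0.106), with 4 or 5 lower without control-labelled library 2 or 3 or SIX2-labelled library 1 or 2 and 14 on removing a GC trend.

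Of 27 genes of glycolysis 4 were higher and 4 lower, close to the 14.1% and 15% over all genes (median 0.036), with 2 higher without control-labelled library 1 or 2 or SIX2-labelled library 2. Gapdh fell from 173579, 154046 and 144700 to 109323, 105356 and 91315 normalized counts in GFP-negative libraries, while its log2 change in GFP-positive libraries was 0.01 (adjusted p = 0.941). Gpi1 (−0.57) and the muscle isoform Pgam2 (−0.47) fell and the platelet-type phosphofructokinase Pfkp (0.44) rose on the log2 scale. Of 27 genes of cholesterol and fatty acid synthesis 5 were lower, Dhcr7 (−0.84) among them, and 4 higher, also close to those shares (median −0.0686), with 1 or 2 higher without control-labelled library 2 or 3 or SIX2-labelled library 1 or 2. Of 14 polyamine genes 4 were higher and 3 lower (median −0.014), with 2 higher without control-labelled library 2. Odc1, which makes the polyamine putrescine, fell from 3284, 2839 and 3226 to 1002, 1082 and 1314 (log2 −1.47 ± 0.15, adjusted p = 1.98e-05). Srm, which makes spermidine, rose from 1414, 1368 and 1415 to 2190, 2573 and 2472.

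Set against the GFP-positive libraries, in which 3367 of the same 13893 genes (24.2%) passed the threshold by plasmid label, 1995 of the 4045 genes called in GFP-negative libraries were called in the same direction (1079 higher and 916 lower), 10 in the opposite direction and 2040 were not called there. The cell cycle lists had 29 of 30 and 29 of 32 genes higher in GFP-positive libraries, with medians of 0.998 and 0.923. Myf5 rose in both, by 1.32 in the GFP-negative and by 0.77 in the GFP-positive population (interaction 0.55, adjusted p = 0.132). The interferon list had 6 higher and 1 lower of 29 in GFP-positive libraries, where Ifit1 had 36.7, 27.1 and 34.6 with the control label and 10.7, 25.3 and 22.8 with the SIX2 label (−0.79; interaction 2.08, adjusted p = 0.0751). Odc1 had 1001, 1118 and 1419 and 1459, 1157 and 1001 in those libraries (0.03; interaction −1.50, adjusted p = 0.0751). Cavin2 had a log2 change of 1.87 there (interaction 0.93, adjusted p = 0.181). None of these differences between populations passed the threshold after adjustment over all genes.

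Strand is not kept by the library protocol, and where exons overlap on opposite strands the reads of the genes cannot be told apart. Of the genes named here this applies to Cacna1s, Cavin3, Ccn2, Ccnd1, Ccnd2, Cdc20, Cdc25b, Cdk4, Cdk6, Cdkn1a, Chrd, Cryab, Des, Dll1, Dtna, Emx2, Fbn1, Fgfr3, Fn1, Fosl1, Gapdh, Gdf5, Gli3, Gpc1, Gpi1, Hoxa11, Hoxa3, Hoxa7, Hoxb2, Hspd1, Igf2, Irx3, Lama2, Loxl3, Lpp, Mef2d, Neb, Nfkb2, Nos1, Notch3, Npr3, Pacsin3, Pdgfra, Pfkp, Plk1, Prc1, Rab5a, Rb1, Sdc3, Slain2, Tagln, Tbx3, Tgfb2, Thbs1, Tnc, Ttn, Vcam1, Wnt11 and mt-Nd5. Genes that overlap another on the same strand, and whose counts are uncertain for that reason, are Bax, Gbp6, Gria3, Hoxa3, Hoxa9, Hoxc10, Hoxc5, Igf2, Mkx, Nr2e3, Nrp1, Pdgfra, Spp1 and Top2a. Counts of Gapdh, Acta1, Acta2, Gbp6, Ifit1 and H2-D1, which have near-identical copies or pseudogenes, depend on how the authors' counting divided shared reads.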

How the data were processed

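The deposited table holds the authors' normalized counts of 12 libraries, a signal of gene counts divided by a size factor per library. Per the submitters' processing notes, the authors used STAR 2.7.11a, RSEM 1.3.3, DESeq2 1.42.0 and the genome build GRCm38; settings are not given in the sources used here. In each library 100% of values were whole multiples of 1 read's value within 0.0001, so read counts were recovered by division. In each group the libraries differed by more than sampling noise (chi-square per degree of freedom 7.71 to 49.4), and all were kept as replicates.

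Genes that reached 10 normalized counts in 3 or more of 12 libraries (14580) were tested with limma-trend (limma 3.58.1) on log2(normalized count + 1), which understates changes of low genes. The fit had 4 group means and 8 residual degrees of freedom, and p-values were adjusted by Benjamini-Hochberg over all genes tested. Moderated tests are two-sided and the threshold was 0.05. Members of the comparison were read from this fit, and the interaction contrast tested the difference from GFP-positive libraries. The count tests on recovered reads called 4034 genes in edgeR 4.0.16 and 4463 in DESeq2 1.42.0. Scripts were tested on simulated data. GENCODE release 21 for mouse (GRCm38) matched 99.8% of gene IDs and gave coordinates, overlaps and transcript GC content.

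Members and gene lists were chosen with earlier results of these data known. Named genes were the lineage factors, the 25 largest changes in each direction at a mean of at least 50, the 15 largest at 2000 or more, unnamed gene models left out, and up to 5 called genes of smallest p per list, of which a part is described; some genes are not reported here. Acta1, Acta2, Atf4, Cav3, Cdc25b, Cdkn1a, Chac1, Edem1, Fbn1, Fn1, Fzd4, Gli3, Hoxa3, Hoxa5, Hoxa7, Hoxa9, Hoxa11, Hoxb2, Hoxc9, Hoxc11, Hoxd8, Hoxd9, Hspa5, Lama2, Mdm2, Myh3, Myoz1, Neb, Pacsin2, Pacsin3, Plk1, Rb1, Rrm1, Tnc, Ttn and Vcan fall outside this rule and were chosen after their values were seen. Alternatives changed the pseudocount, filter, libraries in the fit, normalization, test, depth, GC content, weights and replicates.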

Additional observations from a re-analysis of the deposited data

Results flagged for a closer look

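Ifit1, an interferon-induced antiviral gene, moved in opposite directions in the GFP-negative and GFP-positive libraries, with no overlap between plasmid labels in either. In GFP-negative libraries it had 266, 297 and 199.8 normalized counts with the control label and 585, 594 and 665 with the SIX2 label, in GFP-positive libraries 36.7, 27.1 and 34.6 and 10.7, 25.3 and 22.8. The difference of its log2 changes was 2.08 (limma-trend interaction, adjusted p = 0.0751), which did not pass 0.05. Ifit1 has near-identical relatives, so reads may have been divided among them.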

How the results depend on the processing

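Over 27 alternatives the count of genes called in GFP-negative libraries (4045) lay between 2967 and 6049, and 72.2% to 100% of the 4045 were called in the same direction. Leaving out 1 of the 6 GFP-negative libraries gave 2967 to 3494 genes and leaving out 1 of the 6 GFP-positive libraries 3842 to 4266. With library weights 2973 genes were higher, against 1965; the cause was not tested. Higher genes made up 46.2% to 52.6% of calls, and no scaling moved the median of all genes by more than 0.0176. Removing the trend with the highest-GC window, an alternative chosen after seeing the data, gave 4048 genes.

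The interaction, with 0 genes called, gave 558 in DESeq2, 282 with library weights, 3 on removing the highest-GC window trend and 0 to 171 on leaving out 1 library (171 without GFP-positive control-labelled library 3, 56 without GFP-positive SIX2-labelled library 3); the cause was not tested.

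Deviations of same-number libraries from their group means had r = 8.78e-05, −0.0154 and 0.0446 for the GFP-negative pairs of the 2 labels. For the GFP-positive pairs r was −0.108, 0.0111 and −0.203. With 3 libraries per group these values cannot tell whether the numbers mark shared animals or cultures, and the main fit did not pair libraries. With a replicate block 3712 genes were called. Of 182 called genes named here, 170 were called under every alternative; another 3 (Hoxa3, Hoxc11 and P2ry14) were not tested under the filter of 50, of which 1, P2ry14, was called under all the others. On leaving out any 1 library 172 kept their call. Most of the named genes were chosen for a large change or a small p in these data, or after their values were seen. Their counts therefore cannot stand for all called genes. Of all 4045 called genes, 72.2% to 80.4% were called in the same direction on leaving out 1 of the 6 GFP-negative libraries. Acta2 reversed under quantile normalization, with a log2 change of 0.0188. Genes with a mean under 50 were called least often (7.95%), and changes there were detectable mainly when large.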
